A study of Mus musculus with 16 samples.

Results

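The CXCR2 ligand chemokines and their receptors were described in mouse mammary tumours through 6 genes, taken by gene symbol: the ligands Cxcl1, Cxcl2, Cxcl3 and Cxcl5, which lie in a cluster of CXC chemokine genes on chromosome 5, and the receptors Cxcr1 and Cxcr2, of 47311 genes in all. They were proposed with the fold changes of anti-PD-1 against IgG2a tumours known. The data were bulk RNA sequencing of 16 tumours in female C57BL/6J mice that were kept obese with a 60% kcal fat diet between 8 and 26 weeks of age. The tumours grew from E0771-luciferase cells, which derive from a mammary cancer of the C57BL/6 strain and carry a luciferase reporter. Each mouse received 250000 cells in 25% Matrigel in mammary gland 4. From day 3 the mice were given 200 ug of antibody every 3 days until day 21, against PD-1, an inhibitory receptor on T cells, in 8 mice, and of the IgG2a isotype in 8 control mice. All tumours came from the same line in hosts with an intact immune system and on the same diet, and no lean or antibody-free group was used here.

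ELR-motif CXC chemokines such as CXCL1, CXCL2, CXCL3 and CXCL5 bind the G protein-coupled receptor CXCR2 and draw neutrophils out of blood and into inflamed tissue. Macrophages, neutrophils, fibroblasts and epithelial or tumour cells can make them after IL-1, TNF or IL-17 signalling, largely through NF-kB. In the mouse, CXCR2 is the main receptor for these ligands on neutrophils, and CXCR1 is a closely related receptor. In bulk RNA, fewer cells of a type and less RNA per cell cannot be told apart, and the tumour cells that may make a ligand are not separated from the cells that carry its receptor.

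All 4 ligand genes lie on the plus strand of chromosome 5 within 146579 bases of GRCm38. Cxcl5 (ENSMUSG00000029371) occupies chr5:90759360-90761624, Cxcl3 (ENSMUSG00000029379) chr5:90786103-90789600, Cxcl1 (ENSMUSG00000029380) chr5:90891241-90893115 and Cxcl2 (ENSMUSG00000058427) chr5:90903871-90905938. Cxcl1 and Cxcl2 are neighbours, 10755 bases apart, whereas the platelet chemokine genes Ppbp and Pf4 lie between Cxcl5 and Cxcl3, and Cxcl15 lies between Cxcl3 and Cxcl1. Cxcr2 (ENSMUSG00000026180, chr1:74153989-74161246, plus strand) and Cxcr1 (ENSMUSG00000048480, chr1:74191785-74194631, minus strand) are 30538 bases apart on chromosome 1.

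The stretches just before the starts of 3 of the ligand genes are shown because these genes varied together between tumours, as described further on. They come from the RefSeq promoter windows on GRCm38.p6, which matched 5 of the 6 members and not Cxcl5, and run from position -150 to -29 from the RefSeq start, 5′ to 3′ on the plus strand. Capitals mark matches to a form of the NF-kB site (kB site), GGG and TTCC with any 3 bases between them, searched on both strands, and a match that overlaps one on the other strand is shown as 1 run.
Cxcl1, chr5:90891095-90891216: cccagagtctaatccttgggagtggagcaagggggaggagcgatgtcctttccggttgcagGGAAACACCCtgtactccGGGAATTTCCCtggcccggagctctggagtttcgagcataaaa
Cxcl2, chr5:90903749-90903870: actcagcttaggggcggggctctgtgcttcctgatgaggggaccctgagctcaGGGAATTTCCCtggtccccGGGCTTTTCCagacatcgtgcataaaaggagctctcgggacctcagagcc
Cxcl3, chr5:90785951-90786072: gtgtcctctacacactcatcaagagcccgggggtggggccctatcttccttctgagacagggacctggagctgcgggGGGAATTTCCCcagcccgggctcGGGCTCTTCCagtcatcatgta

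Each stretch held 2 separate matches, and all 3 held the same site with the bases AAT between GGG and TTCC, overlapped on the other strand by a match with AAA, starting at -71 in Cxcl1, -97 in Cxcl2 and -73 in Cxcl3. The kB site was present in 1825 of the 32851 promoter windows of the table (5.56%), and the form with AAT, picked out because the 3 windows share it, in 29 (0.0883%). Outside the matches the aligned stretches were 43.59% identical for Cxcl1 and Cxcl2, 54.08% for Cxcl1 and Cxcl3 and 44.83% for Cxcl2 and Cxcl3; with the matches included these were 48.65, 56.59 and 50.34%. The windows of Cxcr1 and Cxcr2 held no match to the kB site. The TATA box letters TATAAA, in 13.6% of all windows, were found among the 5 members in Cxcl3 only. These are matches of letters and carry no measurement of binding.

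The tables held 59036535 to 82591064 estimated reads per tumour. The epithelial keratin gene Krt8 stood at 57.1 ± 10.2 CPM (counts scaled for library size) in the anti-PD-1 group and 62.7 ± 19.5 CPM in the IgG2a group (mean ± SD, n = 8 each), and the 6 epithelial markers summed to 36.7 to 116 TPM under anti-PD-1 and 38.7 to 397 TPM under IgG2a. None of the epithelial markers was at 0 in every tumour. Some tumours stood apart, with no cause tested: anti-PD-1 replicate 6 had 38993 transcripts detected, IgG2a replicate 7 carried adipocyte and red cell genes far above the other tumours (mean log2(TPM + 0.1) 8.40 and 7.88 above the median tumour) and IgG2a replicate 3 skeletal muscle genes (12.1 above). Anti-PD-1 replicate 1 had the highest neutrophil marker score, 1.87 above the median tumour. Group differences of the members and of the pathway lists are given with all 16 tumours and with some or all of these 4 left out, as stated with each value. For the other CXC chemokine genes, the atypical receptors and the genes that signal below CXCR2, anti-PD-1 replicate 1 was kept in.

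Cxcl1 and Cxcl2 were the most abundant of the ligands, with medians over all 16 tumours of 42.9 and 46.1 TPM (a level scaled for transcript length and library size). Cxcl3 followed at 14.6 TPM, Cxcr2 at 1.15 TPM, Cxcl5 at 0.717 TPM and Cxcr1 at 0.200 TPM. The order of neighbours was firm in some places and not in others. Cxcl2 exceeded Cxcl3, and Cxcl3 exceeded Cxcl5, in 16 of 16 tumours, and Cxcr2 exceeded Cxcr1 in 15. Cxcl1 exceeded Cxcl2 in 9 of 16, and Cxcl5 exceeded Cxcr2 in 7, so that these neighbours were not separated. The place of Cxcl2 beside Cxcl1 rests in part on a short transcript: Cxcl2-204, of 397 bases and annotated as a retained intron, had a median of 17.6 TPM. Counted over protein-coding transcripts alone, the median was 24.6 TPM for Cxcl2 and 41.9 TPM for Cxcl1, and Cxcl1 exceeded Cxcl2 in 13 of 16 tumours.

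The spread between tumours differed greatly among the members. Over all 16 tumours the highest level was 280-fold above the lowest for Cxcl3, 197-fold for Cxcl5 and 178-fold for Cxcl2, against 14.2-fold for Cxcl1 and 20.4-fold for Cxcr2. Within the groups the range of Cxcl1 was 3.56-fold in anti-PD-1 tumours and 12.1-fold in IgG2a tumours, and that of Cxcl5 was 84.8-fold in anti-PD-1 tumours and 9.54-fold in IgG2a tumours. Cxcr1 had no reads in 2 tumours, IgG2a replicates 1 and 8, so no fold is given for it. The lowest Cxcl5 level, in IgG2a replicate 8, rests on 10 reads, all assigned to a retained-intron transcript. Over protein-coding transcripts alone Cxcl5 was at 0 TPM in that tumour. Its folds over all 16 tumours and within IgG2a are therefore imprecise. The Cxcl2 fold also counts retained-intron transcripts. Over protein-coding transcripts alone Cxcl2 ran from 3.01 to 309 TPM and Cxcl3 from 0.797 to 227 TPM.

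**Figure D1:**
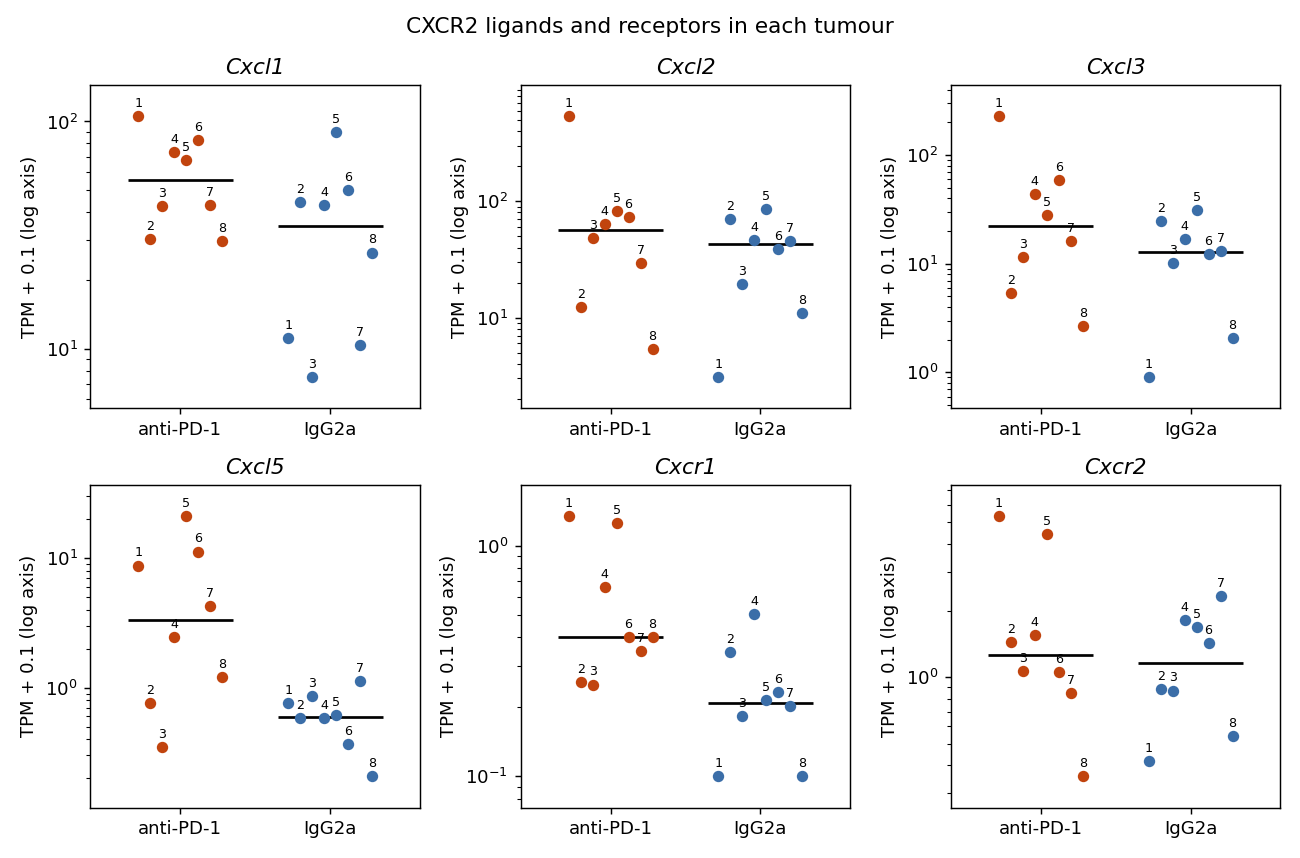
Level of each gene in every tumour (vertical axis, TPM + 0.1, log scale) for anti-PD-1 and IgG2a tumours; each point is 1 tumour labelled with its replicate number and the line is the group median. The groups overlap in all 6 panels, anti-PD-1 replicate 1 is highest for Cxcl2 and Cxcl3 at 537 and 228 TPM, and Cxcl5 stays at or below 1.02 TPM in the IgG2a tumours.

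The members were chosen by their estimates for anti-PD-1 over IgG2a, so the differences between the groups below are a description and carry no test. As the background to them, 0 of 16154 genes tested passed an adjusted p of 0.05 by edgeR's quasi-likelihood test (0%), while 1836 had an unadjusted p under 0.05; limma-voom called 0 with 990 unadjusted, and DESeq2 called 4 of 27810 (0.0144%). The median log2 fold change over all genes tested was -0.05. Groups that did not overlap in log2 CPM were found for 2 of the 16154 genes (0.0124%), and for 0 of the 6 members.

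Cxcl1, known in mice as KC, ran from 29.6 to 105 TPM in anti-PD-1 tumours with a median of 55.2, against 7.42 to 89.7 TPM in IgG2a tumours with a median of 34.6. The groups overlapped over most of their range, and 4 IgG2a tumours lay below the lowest anti-PD-1 tumour, among them the replicates 3 and 7 that stood apart. The fitted log2 fold change, anti-PD-1 over IgG2a, was 0.97 ± 0.47 (SE), and 0.43 without replicates 3 and 7 of IgG2a and replicate 6 of anti-PD-1.

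Cxcl2, or MIP-2, ran from 5.31 to 537 TPM in anti-PD-1 tumours with a median of 56.0, against 3.01 to 85.7 TPM in IgG2a tumours with a median of 42.4. A single tumour set the upper end: anti-PD-1 replicate 1 had 537 TPM and the next had 82.4 TPM, below the highest IgG2a tumour. The log2 fold change was 1.65 ± 0.80 (SE), and 0.62 without that tumour.

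Cxcl3 followed nearly the same order of tumours. It ran from 2.59 to 228 TPM in anti-PD-1 tumours with a median of 22.1, against 0.814 to 31.3 TPM in IgG2a tumours with a median of 12.7. Anti-PD-1 replicates 1, 4 and 6 lay above every IgG2a tumour. The log2 fold change was 2.03 ± 0.86 (SE), and 1.08 without anti-PD-1 replicate 1.

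Cxcl5, or LIX, separated the groups more than the other ligands did in level, although it was the least abundant. In anti-PD-1 tumours it had 8.66, 0.667, 0.248, 2.35, 21.0, 11.1, 4.15 and 1.11 TPM in replicates 1 to 8, a median of 3.25. In IgG2a tumours it had 0.665, 0.486, 0.766, 0.485, 0.510, 0.269, 1.02 and 0.107 TPM, a median of 0.498. In 6 of 8 anti-PD-1 tumours the level was above the highest IgG2a tumour, and replicates 2 and 3 lay among the IgG2a values. The IgG2a values rest on 10 to 85 estimated reads per tumour, against 20 to 1680 under anti-PD-1, so they are less precise. The log2 fold change was 3.68 ± 0.82 (SE), 3.61 with anti-PD-1 replicate 1 left out and 3.73 when the 3 other tumours that stood apart were left out. The estimate was 3.70 by DESeq2 and 2.70 by limma-voom.

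Of the receptors, Cxcr2 differed little. It ran from 0.257 to 5.25 TPM in anti-PD-1 tumours with a median of 1.15, against 0.319 to 2.22 TPM in IgG2a tumours with a median of 1.05, and 4 of 8 anti-PD-1 tumours were above the IgG2a median. Anti-PD-1 replicates 1 and 5, at 5.25 and 4.35 TPM, lay above all the others, and the log2 fold change was 0.85 ± 0.55 (SE), or 0.42 without replicate 1.

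Cxcr1 was near the limit of detection. It had 0.150 to 1.25 TPM in anti-PD-1 tumours with a median of 0.302, from 8 to 80 reads, against 0 to 0.407 TPM in IgG2a tumours with a median of 0.108, from 0 to 19 reads. All 8 anti-PD-1 tumours were above the IgG2a median and 3 were above the highest IgG2a tumour. The filter on low values, at 0.146 CPM, was reached by 6 anti-PD-1 and 2 IgG2a tumours, so the gene entered the fit through the anti-PD-1 group; its log2 fold change was 1.99 ± 0.72 (SE), and the other 5 members passed the filter in 7 or 8 tumours of each group.

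**Figure D2:**
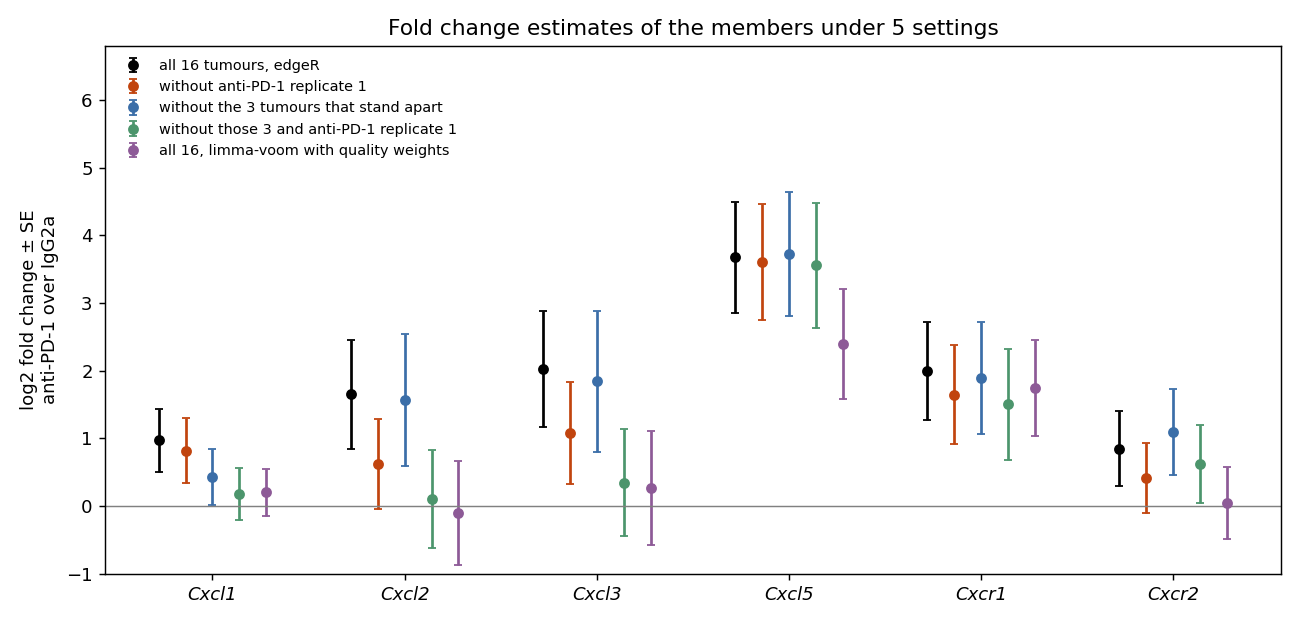
Log2 fold change of each gene, anti-PD-1 over IgG2a (vertical axis; bars are SE), for all 16 tumours and with tumours left out or down-weighted. Cxcl5 stays between 2.39 and 3.73 and Cxcr1 between 1.501 and 1.99 over these settings, while Cxcl2 ranges from -0.11 to 1.65. The genes were chosen by this contrast, and Cxcr1 rests on few reads and entered the fit of all 16 tumours through the anti-PD-1 group.

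Leaving out anti-PD-1 replicate 1 together with the 3 tumours that stood apart, an alternative added after the values were seen, put the log2 fold changes at 0.18 for Cxcl1, 0.10 for Cxcl2, 0.34 for Cxcl3 and 0.62 for Cxcr2, against 3.56 for Cxcl5 and 1.501 for Cxcr1. limma-voom with quality weights, which lowers the weight of tumours that deviate over all genes, gave 0.20, -0.11, 0.26 and 0.05 for the first 4 and 2.39 and 1.75 for Cxcl5 and Cxcr1. Tumour numbers in the labels fall into a low range, with 3 tumours of each group, and a high range, with 5 of each. The Cxcl5 estimate was 2.33 ± 1.27 (SE) in the low range and 4.29 ± 0.94 in the high range, whereas Cxcl2 had 2.86 ± 1.73 and 0.67 ± 0.78. The low range holds replicates 1 to 3 of each group, and its Cxcl5 estimate rests on anti-PD-1 replicate 1, at 8.66 TPM. Anti-PD-1 replicates 2 and 3 had 0.667 and 0.248 TPM there, against 0.665, 0.486 and 0.766 TPM in the IgG2a tumours.

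Summed over the 4 ligands, the level ran from 38.6 to 879 TPM in anti-PD-1 tumours with a median of 143, against 15.5 to 207 TPM in IgG2a tumours with a median of 85.6. Replicate 1 of anti-PD-1 stood at 879 TPM, with the next tumour at 226 TPM. Of the 879 TPM, 225.7 TPM came from the short retained-intron transcript Cxcl2-204. The make-up of the summed level varied too: Cxcl1 supplied 11.99 to 76.7% of it in anti-PD-1 tumours and 14.6 to 71.0% in IgG2a tumours. With all transcripts counted, Cxcl1 was the largest ligand in 5 anti-PD-1 and 4 IgG2a tumours and Cxcl2 in the others. Over protein-coding transcripts alone, Cxcl1 exceeded Cxcl2 in 13 of 16 tumours. Cxcl5 supplied 0.242 to 10.6% in anti-PD-1 tumours with a median of 2.12%, against 0.246 to 4.29% in IgG2a tumours with a median of 0.402%; its share was over 4% in anti-PD-1 replicates 5, 6 and 7 and in IgG2a replicate 1, the tumour with the lowest sum.

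**Figure D3:**
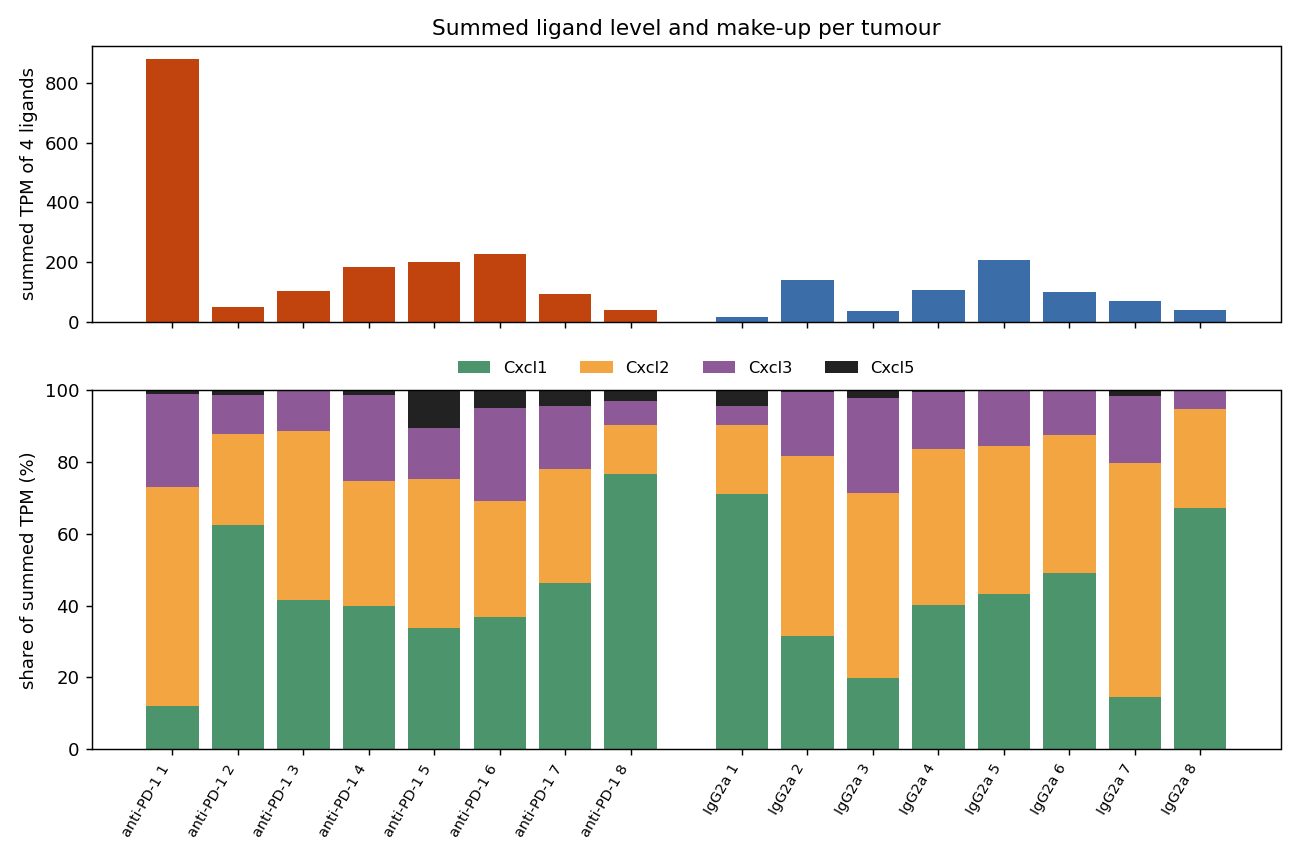
Summed TPM of the 4 ligands in each tumour (upper panel) and the share of each ligand in that sum in % (lower panel), anti-PD-1 tumours on the left and IgG2a tumours on the right. The sum is 879 TPM in anti-PD-1 replicate 1, and the Cxcl1 share runs from 11.99 to 76.7%. Retained-intron transcripts are counted, among them Cxcl2-204 at 225.7 TPM in anti-PD-1 replicate 1.

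Whether the genes vary together between tumours does not depend on the group difference when it is read within each group. Of the 15 pairs, 11 had a correlation of log2(TPM + 0.1) over the 16 tumours past an adjusted p of 0.05 (permutation test, two-sided, Benjamini-Hochberg over the 15 pairs), and all 15 were positive; by Spearman's rho 9 passed. Taken as deviations from the group means, 9 passed. Within anti-PD-1 4 passed and within IgG2a 1 did (exact permutation tests over 8 tumours), with 15 and 14 positive.

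Cxcl2 and Cxcl3 varied most closely together, with Pearson's r = 0.962 and Spearman's rho = 0.927 over all tumours (permutation p = 1e-05, the smallest that 100000 resamples can give, adjusted p = 0.00015). The correlation was as close within each group, 0.962 within anti-PD-1 and 0.976 within IgG2a, at 0.988 and 0.925 within the low and high ranges of tumour numbers, and at 0.915 without the 2 tumours farthest from the median. Their main transcripts are 90.1% identical over 354 bases, and how the estimate divided reads between them was not stated in the sources. Summed per gene, the reads of both were fractional in anti-PD-1 replicate 1 and IgG2a replicates 2 and 7. In the other tumours both sums were whole numbers. The part of shared reads in the correlation was not tested. Cxcl1 was joined to this pair unevenly. Its r was 0.677 with Cxcl2 (rho 0.827, permutation p = 0.00384, adjusted p = 0.0064) and 0.695 with Cxcl3 (rho 0.859, permutation p = 0.0028, adjusted p = 0.00594). Within anti-PD-1 these were 0.922 and 0.973, and within IgG2a 0.605 and 0.523, where neither passed; the difference between the groups was not tested. Without the 2 tumours farthest in Cxcl1 they were 0.910 and 0.939.

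Cxcl5 followed the other ligands less closely. Its r was 0.424 with Cxcl1 (rho 0.350, permutation p = 0.1013, adjusted p = 0.1013), 0.469 with Cxcl2 (rho 0.332, permutation p = 0.0686, adjusted p = 0.0735) and 0.591 with Cxcl3 (rho 0.515, permutation p = 0.0156, adjusted p = 0.0213), the last no longer past the threshold without the 2 farthest tumours (0.555). Within IgG2a, where Cxcl5 was low throughout, r with Cxcl1 was -0.479 and within anti-PD-1 0.725; neither passed after adjustment. Over all tumours Cxcl5 was closer to Cxcr1, at r = 0.753 (rho 0.603, permutation p = 0.00075, adjusted p = 0.00273). Both genes were chosen with their higher estimates under anti-PD-1 known, so the value over all tumours also holds that group difference. Within anti-PD-1, r of Cxcl5 with Cxcr1 was 0.758, near its 0.725 with Cxcl1. Within IgG2a it was 0.219, where both genes rest on few reads.

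Cxcl2 also varied with its receptor gene Cxcr2, at r = 0.829 (rho 0.729, permutation p = 0.00012, adjusted p = 0.0009), with 0.824 within anti-PD-1 and 0.821 within IgG2a (exact permutation, adjusted p = 0.0484 and 0.0647), 0.861 and 0.846 in the low and high ranges, and 0.697 without the 2 farthest tumours. The receptors Cxcr1 and Cxcr2 had r = 0.690 (rho 0.469, permutation p = 0.00317, adjusted p = 0.00594), and 0.351 without the 2 tumours farthest in Cxcr1 so the relation rests on those tumours.

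**Figure D4:**
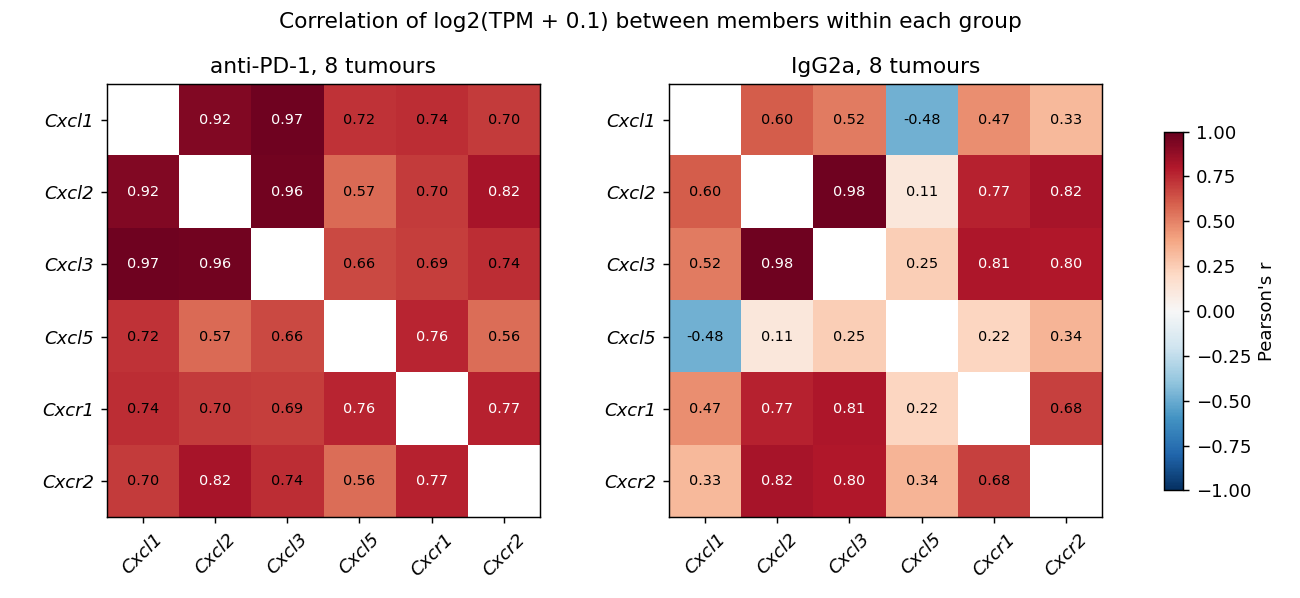
Pearson's r of log2(TPM + 0.1) between each pair of the 6 genes, within the 8 anti-PD-1 tumours (left) and the 8 IgG2a tumours (right); colour runs from -1 to 1. Cxcl2 and Cxcl3 are at 0.96 and 0.98, and Cxcl1 with Cxcl5 is at 0.72 and -0.48.

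Neutrophils carry Cxcr2 and can make Cxcl2, so each gene was set against a score of 15 neutrophil markers, the mean log2(TPM + 0.1) of genes such as S100a8, S100a9 and Ly6g, with Cxcr2 left out. The score also holds Clec4d, a lectin receptor on myeloid cells, and Clec4e, Fpr1, Fpr2, Trem1 and Mmp9. Whether the score follows neutrophils alone or other myeloid cells too was not tested. The markers summed to 201 to 1249 TPM with a median of 322 in anti-PD-1 tumours, against 127 to 396 TPM with a median of 315 in IgG2a tumours, and none was at 0 in all tumours. All 6 members passed an adjusted p of 0.05 over the 6 relations by Pearson's r, and 5 of 6 by Spearman's rho, Cxcl5 being the exception. r was 0.923 for Cxcl2 and 0.880 for Cxcl3 (rho 0.832 and 0.838, permutation p = 1e-05 each, adjusted p = 2e-05), 0.865 for Cxcr2 (rho 0.818, permutation p = 1e-05, adjusted p = 2e-05), 0.810 for Cxcr1 (rho 0.655, permutation p = 0.0001, adjusted p = 0.00015), 0.674 for Cxcl1 (rho 0.694, permutation p = 0.00348, adjusted p = 0.00418) and 0.511 for Cxcl5 (rho 0.344, permutation p = 0.043, adjusted p = 0.043).

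Taken as deviations from the group means, 5 of the 6 members passed by Pearson's r and 5 by Spearman's rho. Cxcl2, Cxcl3, Cxcr2 and Cxcr1 passed by Pearson's r within both groups, and none of the 6 passed by Spearman's rho within IgG2a (exact permutation tests). Within anti-PD-1, r was 0.907, 0.859 and 0.891 for Cxcl2, Cxcl3 and Cxcr2, and within IgG2a 0.952, 0.881 and 0.810; within the high range of tumour numbers it was 0.855, 0.759 and 0.946 and within the low range 0.960, 0.958 and 0.928. Without the 2 tumours with the farthest scores it was 0.816, 0.726 and 0.796. Cxcr1 had 0.853 within anti-PD-1 and 0.775 within IgG2a, 0.635 and 0.996 within the high and low ranges, of which the first did not pass, and 0.659 without the 2 farthest scores. Cxcl5 had 0.556 within anti-PD-1 and 0.0123 within IgG2a, and Cxcl1 0.808 and 0.610. Cxcl5 also lost the relation without those 2 tumours (0.417), as did Cxcl1 (0.539, adjusted p = 0.0546). The part of neutrophil number in these levels was not tested.

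**Figure D5:**
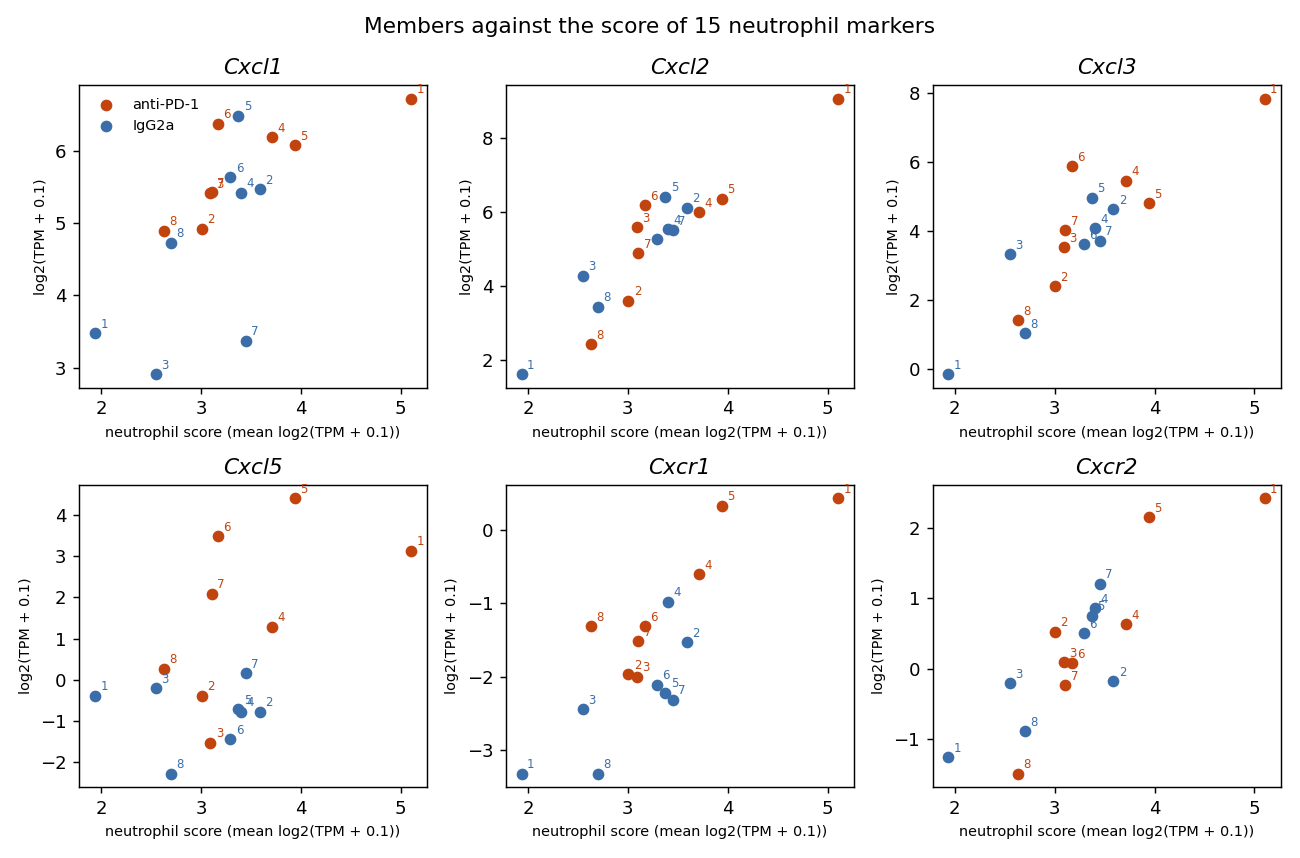
Level of each gene (vertical axis, log2(TPM + 0.1)) against the neutrophil score (horizontal axis, mean log2(TPM + 0.1) of 15 markers), 1 point per tumour labelled with its replicate number, anti-PD-1 in red and IgG2a in blue. Anti-PD-1 replicate 1 has the highest score and the highest Cxcl2, Cxcl3 and Cxcr2; for Cxcl5, anti-PD-1 replicates 5, 6 and 7 lie above tumours of a similar score.

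The members were also set against cytokine genes listed here as inducers: Il1a, Il1b, Tnf, Il6, Il17a and Csf3, the gene of G-CSF, which raises neutrophil output. Whether each of them, Il6 and Csf3 among them, induces these ligands was not tested. Of 36 relations, 32 passed over all tumours by Pearson's r and 20 by Spearman's rho. The members were chosen with their higher estimates under anti-PD-1 known, so the counts over all tumours also hold the group difference. By Pearson's r 18 passed as deviations from group means and 11 without anti-PD-1 replicate 1. By the same measure 18 passed within anti-PD-1, 5 within IgG2a and 10 without the 2 farthest tumours of each. How many other genes would pass was not measured, here or for the pairs and the neutrophil score. The closest was Il1a with Cxcl2, at r = 0.947 (rho 0.897, permutation p = 1e-05, adjusted p = 0.00012), with 0.949 within anti-PD-1 and 0.936 within IgG2a. Cxcl1 was closest to Il1b, at 0.860 (rho 0.888, permutation p = 1e-05, adjusted p = 0.00012), with 0.857 within anti-PD-1 and 0.903 within IgG2a. Csf3 had 0.848 with Cxcl2 and 0.862 with Cxcl3 (rho 0.826 each, permutation p = 2e-05, adjusted p = 0.000144) and 0.278 with Cxcl5 (rho 0.188, adjusted p = 0.299). The highest value for Cxcl5 was with Il17a, at 0.689 (rho 0.519, permutation p = 0.00356, adjusted p = 0.00871), but Il17a had 83 reads over all tumours and r was 0.482 without its 2 farthest tumours.

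By Spearman's rho over the 16 tumours, out of 11097 genes, the genes most like each member were as follows, as a description. Cxcl1 was nearest to Mmp13, a collagenase (0.92), to Osm, the cytokine oncostatin M (0.91), and to Fth1, the ferritin heavy chain (0.91). Cxcl2 was nearest to Ccl3, a chemokine of myeloid cells (0.94), Cxcl3 (0.93) and Clec4d, a lectin receptor on myeloid cells (0.92). Cxcl3 was nearest to Clec4d (0.95), Cxcl2 and Il1a (0.91). Cxcl5 had different neighbours: the collagen genes Col12a1 (0.91) and Col27a1 (0.89) and Ndufs5, a subunit of respiratory complex I (0.87). Col12a1 kept 0.93 within anti-PD-1 and 0.86 within IgG2a, and Cxcl3, Cxcl1 and Cxcl2 ranked 759, 1472 and 1562 in the list for Cxcl5. Cxcr2 was nearest to the neutrophil gene S100a9 (0.89), Inhbb, an inhibin subunit (0.84), and Ppp1r3b, a glycogen-targeting phosphatase subunit (0.84). Cxcr1 was nearest to Zdhhc12, a palmitoyltransferase (0.81), Wdyhv1, an N-terminal glutamine amidase (0.79), and Mmp13 (0.79), over values that rest on few reads.

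Among the other genes of these pathways, no gene passed the edgeR test in either direction, so the estimates below are values with no call, and several change sign with the tumours that stood apart. Leaving tumours out of these lists was an alternative added after the values were seen. Over all genes tested, 6962 of 16154 had a higher estimate under anti-PD-1 with all tumours (median log2 fold change -0.05), and 8712 of 16352 without the 3 tumours that stood apart (0.02).

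The inducers had higher estimates for 5 of 5 tested, with a median of 0.91. Il1a had 1.52, Il1b 1.01, Csf3 0.91, Tnf 0.81 and Il6 0.78. These values rested on few tumours: Il1a was at 0.10 without anti-PD-1 replicate 1. Without that tumour and the 3 others, 2 of 5 were higher with a median of -0.11, and Tnf had 0.38, Il1b 0.06, Csf3 -0.11, Il1a -0.13 and Il6 -0.14. The 15 neutrophil markers were higher for 15, with a median of 0.73, and for 11 with a median of 0.10 without the 4 tumours. The 3 of smallest unadjusted p by edgeR were Clec4d at 1.20, the gelatinase gene Mmp9 at 0.96 and the formyl peptide receptor gene Fpr2 at 0.77. Without the 4 tumours these had 0.35, 0.94 and 0.19. The 4 markers that were lower without the 4 tumours were Retnlg (-0.32), Il1r2 (-0.23), Ly6g (-0.11) and Clec4e (-0.05).

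Of 10 NF-kB target genes, 8 were higher with a median of 0.09, and 3 were higher with a median of -0.02 without the 4 tumours. Ptgs2, the inducible cyclooxygenase, had 0.87, and Nfkbia and Nfkbiz, members of the IkB family, had 0.31 and 0.32. Without the 4 tumours Ptgs2 had -0.06 and Nfkbiz 0.06. Of 14 genes that signal below CXCR2, 7 were higher and 7 lower, with a median of -0.02. The arrestin genes Arrb1 and Arrb2 had -1.002 and 0.29 and the kinase gene Fgr 0.24, and without the 3 tumours that stood apart Arrb1 had -0.18.

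Further CXC chemokine genes of chromosome 5 were read in the same way. Pf4 and Ppbp lie within the stretch that holds the 4 ligands, and Cxcl9, Cxcl10, Cxcl11 and Cxcl13 outside it. Cxcl9, Cxcl10 and Cxcl11, the interferon-induced CXCR3 ligands, had 0.33, 0.53 and 0.49 with all tumours. They had 0.33, 0.40 and 0.30 without the 3 that stood apart. Pf4 had 0.52 ± 0.52 (SE) with all tumours and 1.07 ± 0.34 without them. The B cell attractant Cxcl13 had -2.68 ± 1.16 with all tumours and 0.81 ± 0.75 without them, and Ppbp -0.43 ± 0.71 and 0.66 ± 0.57. The same reversal was seen in the other CXC chemokines, whose summed level was highest in IgG2a replicate 7 (258 TPM, against a group median of 52.3): Cxcl14 had -3.01 ± 1.05 with all tumours and 0.56 ± 0.46 without the 3, and Cxcl12 -1.20 ± 0.76 and 0.85 ± 0.39. Cxcl16 had 0.67 ± 0.31 and 0.58 ± 0.36. Of the atypical receptors that take up chemokines, Ackr1 had -1.79 ± 0.95 with all tumours and 0.67 ± 0.67 without the 3, and Ackr3 0.06 ± 0.15 and -0.02 ± 0.16.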

How the data were processed

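Total RNA of 16 tumours, 8 anti-PD-1 and 8 IgG2a, was sequenced after poly(A) selection with a non-directional kit, per the labels' protocols, so overlapping antisense transcripts cannot be told apart. The deposited tables hold, per transcript, the authors' estimated counts of reads, which need not be whole, and TPM scaled per tumour, per the file headers, with transcript lengths as other columns. The submitters' processing notes name GRCm38, edgeR and limma; no quantifier or annotation is named there. Values of 25.4 to 38.6% of transcripts per tumour were fractional, as when reads of similar transcripts are divided. Transcripts were matched to GENCODE vM21 (114200 of 115088); 0.167 to 0.217% of reads had no match and were left out. Counts were summed per gene and rounded. filterByExpr (minimum count 10, minimum total 15) left 16154 genes, tested with edgeR 4.0.16 (TMM, robust quasi-likelihood, Benjamini-Hochberg, 0.05) in R 4.3.3. Alternatives were DESeq2 1.42.0, limma-voom (limma 3.58.1) with and without quality weights, other filters and scalings, tumours left out, and tumour-number range. Correlations used log2(TPM + 0.1) and two-sided permutation tests (100000 resamples, exact within groups of 8 and in the low range of 6). Sequences came from RefSeq; blastn 2.17.0 compared transcripts. The code was tested on simulated data. Each tumour is a separate mouse, numbered in accession order. The members, lists and rule for named genes (the members, the 3 nearest genes to each, and whole lists of up to 8 or otherwise the leading genes of longer lists) were chosen with earlier results of these data known.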

Additional observations from a re-analysis of the deposited data

Results flagged for a closer look

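In anti-PD-1 replicate 1, 3 levels lay far above the other 7 tumours of the group: Cxcl2 at 537.1 TPM with the next at 82.4 (gap over range 0.855), Cxcl3 at 228.2 TPM with the next at 58.5 (0.752), and the summed ligands at 879.4 TPM with the next at 225.5 (0.778), each above the 0.526 limit for 8 values. Chance flags about 1 in 20 groups of normally distributed values. The limit was applied to TPM without logs, so that rate need not hold here. In log2 units Cxcl2 stood at 9.07 in this tumour, with the next at 6.37 and the lowest at 2.43. Cxcl3 stood at 7.83, with the next at 5.87 and the lowest at 1.43. As a part of the range both of these gaps are below the limit, so the Cxcl2 and Cxcl3 flags depend on the scale. The Cxcl2 and Cxcl3 values are linked and are part of the sum, so the 3 flags are not separate events. The same tumour had the highest summed level of neutrophil markers, 1249 TPM, and of the inducers, 374 TPM; their part in the ligand levels was not tested.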

How the results depend on the processing

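No paired analysis was possible because the labels carry no replicate numbers shared between the groups. The number of genes called was 0 by edgeR, also with each tumour left out, 0 by limma-voom with all tumours, and 4 by DESeq2. Cxcl2 was -0.11 with quality weights; Cxcl5 by DESeq2 was 3.70. With 1 tumour left out, the log2 fold changes ran from 0.74 to 1.36 for Cxcl1, 0.62 to 2.01 for Cxcl2, 1.08 to 2.33 for Cxcl3, 3.21 to 3.86 for Cxcl5, 1.65 to 2.37 for Cxcr1 and 0.42 to 1.07 for Cxcr2. Over all alternatives Cxcl5 ran from 2.33 to 4.29. Of the 15 pairs, 4 passed within anti-PD-1, 1 within IgG2a, 3 each within the low and high ranges and 7 without the 2 farthest tumours, with 10 to 13 when 1 tumour was left out; r of Cxcl1 and Cxcl5 was -0.479 within IgG2a. Of the 6 neutrophil relations 3 passed within the high range, and 5 to 6 with 1 tumour left out. Of the 36 inducer relations 18 passed as deviations from group means, 18 within anti-PD-1, 5 within IgG2a, 2 and 10 within the low and high ranges, 10 without the 2 farthest tumours, 14 without the 3 tumours that stood apart and anti-PD-1 replicate 1, and 11 to 33 with 1 tumour left out, the 11 without anti-PD-1 replicate 1. Fewer tumours leave fewer relations past the threshold at equal r. Cxcr1 was not tested in the low range, where it did not pass the filter. Reads limit Cxcr1 and, under IgG2a, Cxcl5.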
